A study of Mus musculus with 8 samples.

Results

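Genes of the tight junction and of apical-basal polarity were followed in RNA from mouse bile duct and pancreatic duct epithelium and from organoids grown from both. The set holds 32 genes chosen by symbol, all of which were found among the 31228 genes of the deposited table. All mice were of the C57BL/6 strain. The groups were 1 library of extrahepatic bile duct epithelium, 1 library of pancreatic duct epithelium, 3 bile duct organoid cultures and 3 pancreatic duct organoid cultures, with no untreated control. Per the labels' protocols, ducts were dissected, minced and digested with collagenase, and the epithelia were put directly in Trizol, with no sorting step described. Organoids, which are 3-dimensional epithelial cultures, were grown in Matrigel in a medium with EGF, R-Spondin-1, Noggin, FGF10 and nicotinamide for 3 to 4 passages. Wnt3A and the kinase inhibitor Y27632 were withdrawn once hollow organoids had formed. The labels do not say whether the cultures came from separate animals, so p-values measure only the spread between these samples, which may be technical.

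Tight junctions are the belts that join epithelial cells near their apical side and control what passes between the cells. Claudins are the membrane proteins that set this permeability, some by sealing the gap and others, such as Cldn2, Cldn10 and Cldn15, by forming channels for small ions. Scaffold proteins such as Tjp1 (ZO-1) and cingulin (Cgn) tie the belt to actin, and the Par and Crumbs complexes place it between the apical and the lateral membrane. In bile and pancreatic ducts this seal keeps bile or digestive juice in the lumen.

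Levels are given as scaled FPKM, that is, fragments normalised to exon length and library size, divided by 1 factor per library, so that levels of different genes can be compared per length. The deposited values imply 12876470 to 20828217 reads or read pairs per library. The 9 general epithelial markers, such as Epcam, Cdh1 and Krt8, summed to 2577 scaled FPKM in epithelium of the bile duct and 559 in that of the pancreatic duct, and to between 4198 and 10700 in organoids. The 7 duct markers summed to 989, 308 and 1484 to 2805, respectively, with 6 of 7 at 1 FPKM or more in the pancreatic duct library and 7 of 7 in the others. The exception was Cftr, the chloride channel of duct cells, at 0.63 scaled FPKM there, against 5.79 in epithelium of the bile duct and between 1.25 and 3.45 in organoids. Of the general epithelial markers, Elf3 was lower in every organoid than in the bile duct library, at 26 to 53.9 against 94.4. Elf3 had 24.5 in the pancreatic duct library, and the other general markers were higher in every organoid than in either epithelium. The duct marker Spp1 had 420 in the bile duct library and 183 in the pancreatic duct library. Its levels were 638, 284 and 408 in bile duct organoids and 261, 1401 and 835 in those of the pancreatic duct. Markers of other cells were abundant in both epithelial libraries. The 6 acinar markers summed to 18931 in the bile duct library and 40135 in the pancreatic duct library, where 6 of 6 reached 1 FPKM, and to at most 7.58 in an organoid, with Cpa1, Pnlip and Amy2a5 at 0 in all 6. The smooth muscle markers summed to 1941 and 3706, the fibroblast markers to 1085 and 1087, and the endothelial markers to 329 and 594, against at most 0.631, 1.92 and 0.0728 in an organoid. Fewer epithelial cells and less RNA per cell cannot be told apart in such bulk samples.

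By their means in both organoid groups, Cldn2, Cldn7, Cldn3 and Cldn4 had more RNA than Cldn6, though in pancreatic duct organoid 2 Cldn6, at 192, lay above Cldn3 and Cldn7. Cldn2, which forms a channel for cations and water, had 365, 362 and 250 scaled FPKM in bile duct organoids 1 to 3 and 209, 368 and 255 in pancreatic duct organoids 1 to 3. The epithelia had 144 in bile duct and 18.8 in pancreatic duct, so all 6 organoids lay above both. Cldn7, a claudin found along the lateral membrane as well as in the junction, had 230, 168 and 174 in bile duct organoids and 176, 177 and 148 in pancreatic duct organoids. Its epithelial levels were 76.7 and 15.0, again below every organoid.

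Cldn3, a sealing claudin, had 196, 91.6 and 95.0 scaled FPKM in bile duct organoids and 197, 178 and 95.2 in pancreatic duct organoids. Bile duct epithelium, at 106, lay among the organoids, and pancreatic duct epithelium, at 30.4, lay below them. Cldn12 was lower and even, at 17.0 to 22.3 in the organoids against 9.41 and 8.96 in the epithelia. Cldn1, Cldn8, Cldn9, Cldn10, Cldn15, Cldn18 and Cldn23 did not reach 10 scaled FPKM in any organoid. Cldn18, known from stomach and lung epithelium, had 0 reads in both epithelia and 0.0792 to 0.503 scaled FPKM in the organoids, so that the organoid mean was at least 5.39-fold higher for bile duct and at least 4.47-fold higher for pancreatic duct, taking 3 reads in the epithelial library as the limit of a count of 0. These levels stayed under 1 FPKM in all 8 libraries, and reads of its different first exons were not separated.

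**Figure D1:**
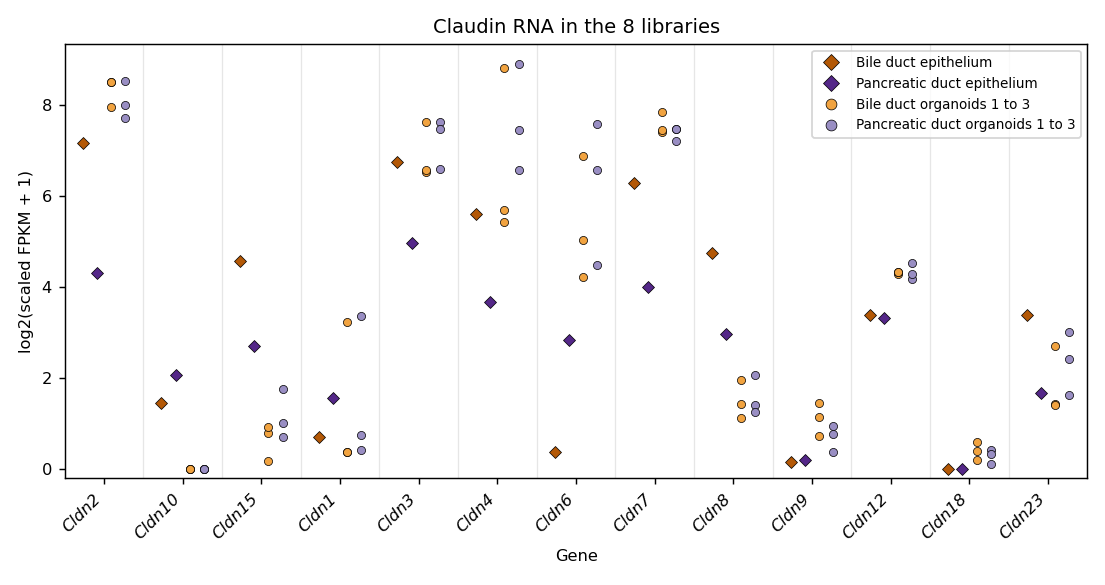
Levels of the 13 claudins in each library, as log2(scaled FPKM + 1), with diamonds for the single epithelial libraries and circles for single organoid cultures. Cldn2 and Cldn7 lie above both epithelia in all 6 organoids, Cldn8, Cldn10 and Cldn15 lie below, and Cldn1, Cldn4 and Cldn6 spread widely among cultures of 1 organ.

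The 13 claudins of the set were compared as shares of their summed FPKM, which do not depend on how libraries are scaled to each other. Cldn5, the claudin of endothelium, is outside this sum, although its 119 scaled FPKM in pancreatic duct epithelium exceeded the 111 of the 13 together. Cldn2, Cldn3, Cldn4 and Cldn7 together made up 84.1% of the 13 in bile duct epithelium, 68.5% in that of the pancreatic duct and between 83.9% and 93.8% in organoids. Cldn2 alone took 32.4% in epithelium of the bile duct and 16.9% in that of the pancreatic duct, against a mean of 39.1% ± 12.5 over bile duct organoids and 29.8% ± 8.86 over pancreatic duct organoids (SD, n = 3 per organ). The organoid values ran from 23.6% to 51.2% and contained the value of bile duct epithelium but not that of pancreatic duct epithelium. Cldn4 took 10.7% in each epithelium, but 32.1%, 5.96% and 8.14% in bile duct organoids 1 to 3 and 19.8%, 33.3% and 14.7% in pancreatic duct organoids 1 to 3. Cldn8 took 5.86% and 6.19% and Cldn15 took 5.17% and 4.95% in the epithelium of bile and of pancreatic duct, and neither exceeded 0.498% in an organoid. Cldn10 took 0.394% and 2.88% in the epithelia.

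**Figure D2:**
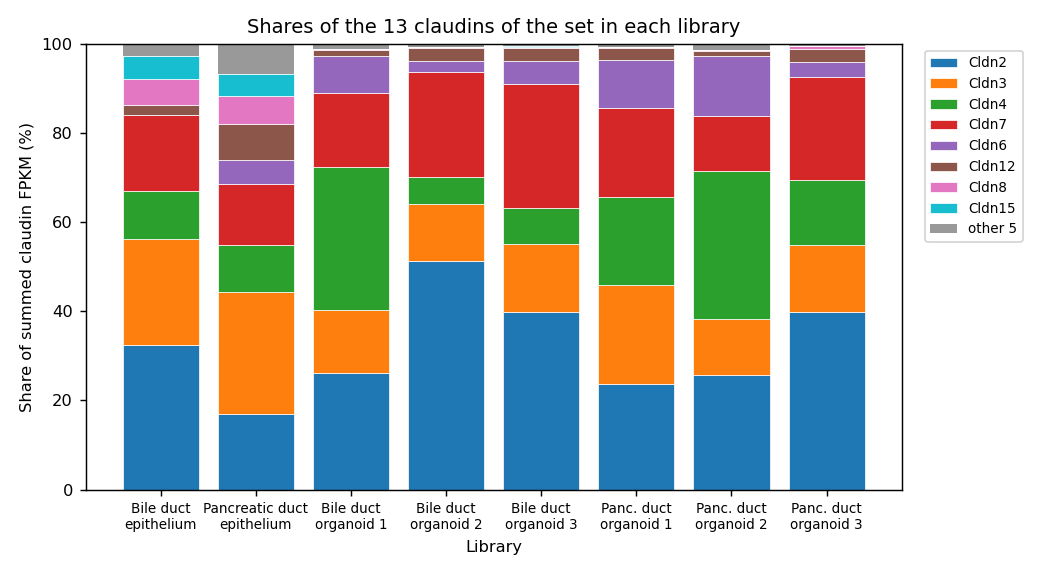
Share of each claudin in the summed FPKM of the 13 claudins, in percent, with 1 bar per library. Cldn8 and Cldn15 fill a visible part of the epithelial bars only, and the Cldn4 band varies from 5.96% to 33.3% among organoids.

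The DNA before the start of the members was read for 26 of the 32 genes with an entry in RefSeq's mouse build GRCm38.p6, taking 250 bases before each annotated start, both strands. The patterns searched were AACNGGTT, the core of Grainyhead-like sites, and CACCTG, an E-box read by Snail and Zeb repressors among others; neither pattern contains the other. AACNGGTT was found in 1 of the 26, Cgn, and in 2% of 27025 genes. CACCTG was found in 13 of the 26 and in 19.4% of all genes. A match is only a description of these letters. The windows of 4 genes are shown, Cgn as the one match to AACNGGTT and the most even of the 26 members tested between organoid groups, Cldn4 and Cldn6 as the most variable of those 26, and Lsr, whose window holds 4 CACCTG matches. They lie at chr3:94786483-94786732 (minus strand), chr5:134946935-134947184 (minus strand), chr17:23679115-23679364 (plus strand) and chr7:30973470-30973719 (minus strand), with matches to either pattern in capitals. The match begins at -29 in Cgn, -14 in Cldn4 and -93 in Cldn6, counted from the start site.
Cgn: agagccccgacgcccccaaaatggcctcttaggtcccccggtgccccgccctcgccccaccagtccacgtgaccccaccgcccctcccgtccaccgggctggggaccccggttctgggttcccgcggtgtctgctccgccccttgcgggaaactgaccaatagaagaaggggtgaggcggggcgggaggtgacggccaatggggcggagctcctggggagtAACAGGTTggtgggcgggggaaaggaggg
Cldn4: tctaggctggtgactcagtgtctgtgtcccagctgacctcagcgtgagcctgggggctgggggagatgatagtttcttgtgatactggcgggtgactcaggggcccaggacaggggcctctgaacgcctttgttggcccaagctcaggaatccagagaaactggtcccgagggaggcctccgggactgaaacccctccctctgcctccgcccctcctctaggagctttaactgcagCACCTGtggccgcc
Cldn6: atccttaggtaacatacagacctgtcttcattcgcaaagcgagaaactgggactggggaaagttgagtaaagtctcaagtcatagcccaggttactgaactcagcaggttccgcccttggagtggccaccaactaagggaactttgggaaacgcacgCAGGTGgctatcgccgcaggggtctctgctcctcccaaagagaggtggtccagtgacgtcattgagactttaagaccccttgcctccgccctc
Lsr: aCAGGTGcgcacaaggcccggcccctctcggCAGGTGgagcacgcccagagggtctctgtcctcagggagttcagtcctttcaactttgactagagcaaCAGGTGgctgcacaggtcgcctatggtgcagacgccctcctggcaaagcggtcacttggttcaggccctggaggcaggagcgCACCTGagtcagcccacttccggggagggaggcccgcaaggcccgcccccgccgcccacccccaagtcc

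The change from epithelium to organoid was tested over both organs in 1 limma fit across all 8 libraries with organ as a term. It sets 2 epithelial against 6 organoid libraries and assumes the same change in both organs. Unlike changes in the organs therefore also enter its standard errors (SE) and p-values. Of the 31 members tested, 20 were higher and 4 lower in organoids at a Benjamini-Hochberg adjusted p under 0.05, and 7 did not pass, while of 14919 genes tested 27.8% were higher and 29.9% lower (57.7% in either direction). The share of deposited FPKM on mitochondrial genes was 24.9% for epithelium of the bile duct, 18.8% for that of the pancreatic duct and between 5.43% and 7.29% for organoids, and the part of this gap in the differences was not tested. These directions hold relative to all genes. When libraries were instead set equal in the geometric mean of Epcam, Cdh1, Krt8, Krt18, Krt7 and Krt19, 25 of the 31 differences turned in sign and 1 member, Cldn6, was called higher and 16 lower, where 0.697% of all genes were higher and 85.5% lower. That alternative shifted the median of all genes by -2.36 on the log2 scale, because the 6 markers themselves rose by 1.63 ± 0.28 in bile duct organoids and 3.80 ± 0.61 in those of the pancreatic duct (log2, SD, n = 3 each). With FPKM as deposited, the median of all genes shifted to 0.23, 24 members were called higher and 4 lower, and 60.0% of all called genes were higher, against 48.2% with the scaling used here. The median of the members lay above that of all genes by 1.15 with that scaling, by 1.17 as deposited and by 0.93 with the epithelial markers. It lay above by 0.63 without the pancreatic duct epithelium and by 1.81 without the bile duct epithelium.

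The differences depended on the single epithelial libraries. Without 1 of them, the fit rests on the other organ's 1 epithelial library against its 3 organoids. It then gives the change of that organ alone, so no calls or p-values are given for these fits. Without the pancreatic duct epithelium Cldn2 was at 1.15, Cxadr at 0.63, Ocln at 0.58 and Tjp3 at 0.55 on the log2 scale. Cldn9, Tjp1 and Pard3 were at 0.94, 0.62 and 0.58 in that fit. Without the bile duct epithelium Cldn2, Tjp3 and Cxadr were at 3.77, 3.11 and 1.98, Cldn3 at 2.26, Cldn6 at 3.38 and Cldn15 at -1.54. Cldn9, Tjp1 and Pard3 were at 0.49, 0.40 and 0.77 there. Cldn10 and Jam3 fell under the filter in both fits. Whether the calls hold in each organ was not tested. Cldn9, Cxadr and Tjp1 lost the call when some single organoids were left out, with differences near those of the full fit. Cldn9 was then at 0.71 or 0.67 against 0.72, and Cxadr at 1.30 or 1.33 against 1.31. Tjp1 was at 0.46 to 0.53 against 0.51. Cldn10 and Jam3 passed the filter only through the epithelia and Cldn6 and Cldn9 only through the organoids, so their counts among the called members carry no support.

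Organ by organ, without a test, a member was counted where the mean of the 3 organoids on the log2(scaled FPKM + 1) scale differed at least 2-fold from the epithelium and all 3 lay on the same side of it. Of the 31 members at 1 FPKM or more, 11 were higher and 5 lower in bile duct organoids by this rule, where 12.7% of 15227 genes were higher and 26.1% lower (38.8% in either direction). In pancreatic duct, 18 of 30 were higher and 4 lower, where 15.4% of 14984 genes were higher and 25% lower (40.4% in either direction). Among these, Cldn10 and Jam3 in both organs and Cldn15 in bile duct reached 1 FPKM only in the epithelium, and Cldn6 in bile duct only in the organoids, so they carry no support. Scaled by the epithelial markers, the counts became 1 higher and 9 lower in bile duct, where 1.87% of all genes were higher and 68% lower, and 0 higher and 19 lower in pancreatic duct, where 0.914% were higher and 94.3% lower.

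**Figure D3:**
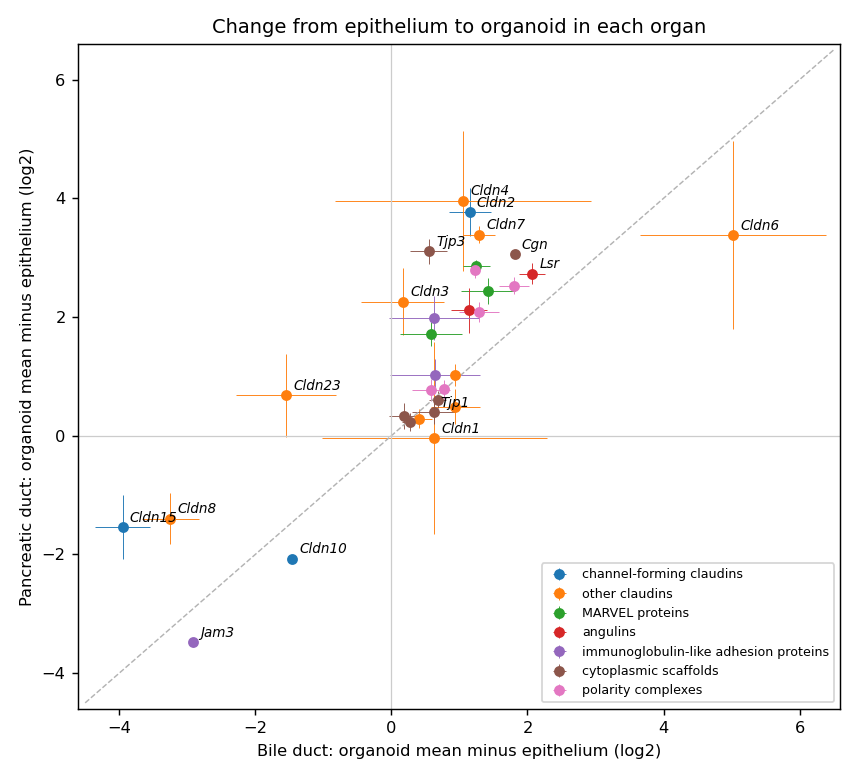
Mean log2 difference between organoids and the epithelium of the same organ for each of the 32 genes, bile duct on the horizontal and pancreatic duct on the vertical axis, with bars for the SD over 3 organoids and a dashed line where both are equal. Most genes lie in the upper right, Cldn8, Cldn10, Cldn15 and Jam3 lie in the lower left, and Cldn4, Cldn2, Tjp3, Cldn15, Cldn23, Cldn7 and Cldn3 lie furthest above the line; in the fit over both organs 25 of 31 signs turn with scaling by epithelial markers.

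Among the 3 channel-forming claudins, Cldn2 was higher and Cldn15 lower, and Cldn10 was called lower but had entered the fit only through its epithelial levels. Cldn2 was higher by 2.46 (SE 0.55, limma adjusted p = 0.00746), with 1.15 in bile duct and 3.77 in pancreatic duct. With the epithelial markers as the scale this became -0.21. Cldn15, a cation channel known from the intestine, had 23.0 and 5.49 scaled FPKM in the epithelium of bile and of pancreatic duct. The organoids had 0.733, 0.132 and 0.903 for bile duct and 1.01, 2.40 and 0.644 for pancreatic duct, none of which reached an epithelial level. Its difference was -2.74 (SE 0.55, limma adjusted p = 0.00456). Cldn10, whose splice forms make anion or cation channels that gene-level values do not separate, had 51 reads in the bile duct and 110 in the pancreatic duct library of epithelium and 0 reads in each of the 6 organoids. With 3 reads per library as the limit that a count of 0 allows, it was at least 27.2-fold and at least 43.7-fold lower in organoids. Beside these genes the acinar marker sum was at most 7.58 in an organoid, and 5 of the 6 enterocyte markers were under 1 FPKM in every organoid. The part of either in the lower Cldn10 and Cldn15 was not tested.

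Of the other claudins, 4 of the 9 tested were higher, Cldn6 and Cldn9 included, and 1 was lower, which is near the 57.7% of all genes called. Cldn6, an embryonic claudin that adult tissues mostly lack, was at 0.296 scaled FPKM in epithelium of the bile duct and at 6.15 in that of the pancreatic duct. It had 118, 17.8 and 32 in bile duct organoids and 95.0, 192 and 21.4 in pancreatic duct organoids. Every organoid was above both epithelia, by 4.20 in the fit (SE 0.97), and by 5.02 in bile duct and 3.38 ± 1.58 in pancreatic duct (SD, n = 3). Only 1 epithelial library reached 1 FPKM, so Cldn6 entered the fit through its organoid levels and its p-value is not given. Scaled by the epithelial markers, the difference was 1.94 over both organs and -0.22 in the pancreatic duct. The span of Cldn6 ends 137 bases from that of Cldn9, and read numbers could not be recovered for either gene, so their exon models in the deposited data may differ from the annotation used here and their values are less certain. Cldn9 reached 0.308 to 1.74 scaled FPKM in organoids against 0.124 and 0.157 in the epithelia.

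Cldn7 was higher by 2.34 (SE 0.43, limma adjusted p = 0.00282), with 1.29 in bile duct and 3.39 in pancreatic duct, and Cldn12 by 0.98 (SE 0.11, limma adjusted p = 0.000327). Scaled by the epithelial markers these became -0.32 and -1.59. Cldn8, a sealing claudin of tight epithelia such as the distal nephron and colon, was at 26.1 scaled FPKM in epithelium of the bile duct, at 6.87 in that of the pancreatic duct, and at 1.72, 2.90 and 1.18 in bile duct organoids and 1.66, 1.39 and 3.18 in those of the pancreatic duct. It fell by 2.32 (SE 0.45, limma adjusted p = 0.00379), and remained negative under each scaling tried. Without the bile duct epithelium it was -1.40, the change in pancreatic duct alone. Cldn3 and Cldn4 did not pass, with 1.22 (SE 0.54, limma adjusted p = 0.0936) and 2.51 (SE 1.12, limma adjusted p = 0.0933). Leaving out 1 library moved Cldn3 between 0.17 and 2.26, the higher value without the bile duct epithelium, and Cldn4 between 1.05 without the pancreatic duct epithelium and 3.96 without the bile duct epithelium. Cldn3 passed with FPKM as deposited (limma adjusted p = 0.0419).

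Cldn23 and Cldn1 were the members whose mean change had opposite signs in the organs. Cldn23 had 9.55 scaled FPKM in epithelium of the bile duct and 5.51, 1.72 and 1.64 in bile duct organoids, all lower, a mean change of -1.55. In pancreatic duct it went from 2.2 to 4.37, 7.08 and 2.08, with organoid 3 just under the epithelium. No test of this difference between organs was run. Cldn1, a sealing claudin of many epithelia including epidermis, had 0.632 and 1.95 in the epithelia, and 8.46, 0.302 and 0.295 in bile duct organoids and 0.680, 9.37 and 0.340 in those of the pancreatic duct. Only bile duct organoid 1 and pancreatic duct organoid 2 lay above the epithelia of both organs, and the mean changes of 0.63 and -0.04 were smaller than the SDs of 1.65 and 1.62.

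The 3 MARVEL proteins, which span the membrane beside the claudins, and the 2 angulins, which recruit tricellulin to the corners where 3 cells meet, were all called higher, where 27.8% of all genes were. All 5 differences turned negative with the epithelial markers as the scale, on which 85.5% of all genes were lower. Occludin (Ocln) was at 17.1 and 6.79 scaled FPKM in the epithelia and between 20.7 and 37.7 in organoids, a difference of 1.15 (SE 0.32, limma adjusted p = 0.0176). Tricellulin (Marveld2) rose by 1.93 and Marveld3 by 2.05 (SE 0.29 and 0.33, limma adjusted p = 0.0011 and 0.00159). Marveld3 was at 6.03 and 1.17 scaled FPKM in the epithelia, at 13.7, 18.4 and 15.3 in bile duct organoids and 15.9, 13.7 and 14.7 in those of the pancreatic duct, and its difference was 1.25 without the pancreatic duct epithelium. Lsr, the main angulin of simple epithelia, was at 10.9 scaled FPKM in epithelium of the bile duct and at 6.79 in that of the pancreatic duct. It had 55.0, 49.6 and 42.4 in bile duct organoids and 55.2, 53.8 and 43.5 in those of the pancreatic duct, with every organoid above both epithelia. The difference was 2.40 (SE 0.18, limma adjusted p = 3.96e-05), with 2.07 in bile duct and 2.73 in pancreatic duct. An antisense gene on the other strand covers 43.6% of its exons, and the sources used here do not state whether counting used strand. Ildr1 rose by 1.62 (SE 0.29, limma adjusted p = 0.00243).

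Of the 3 immunoglobulin-like adhesion proteins, 1 was called higher and 1 lower, where 57.7% of all genes were called. Scaled by the epithelial markers all 3 differences were below 0, at -5.15 for Jam3, -1.86 for F11r and -1.30 for Cxadr. Jam3, which is also made by endothelial, smooth muscle and other stromal cells, had 6.85 and 10.9 scaled FPKM in the epithelium of bile and of pancreatic duct. Bile duct organoids had 0, 0.0438 and 0.0788 and pancreatic duct organoids 0.0592, 0.0173 and 0.138, with every organoid far below both epithelia. It entered the fit only through its epithelial levels, so its p-value is not given. An antisense gene covers 36.2% of its exons. The endothelial, fibroblast and smooth muscle marker sums were lower beside it, with all 6, all 5 and all 5 of them under 1 FPKM in every organoid, and their part in the Jam3 difference was not tested. F11r (JAM-A), the junctional adhesion molecule of epithelia, had 71.1 and 60.2 in the epithelia and 81.6 to 190 in the organoids and did not pass at 0.83 (SE 0.33, limma adjusted p = 0.0677). It passed with FPKM as deposited (adjusted p = 0.0169), without the organ term (0.0488), and without bile duct organoid 1 (0.0432) or 2 (0.0437). Cxadr, the coxsackievirus and adenovirus receptor, was higher by 1.31 (SE 0.43, limma adjusted p = 0.0338). Btg3 overlaps 9.39% of its exons on the other strand, and read numbers of Cxadr could not be recovered.

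Of the 6 cytoplasmic scaffolds, 4 were higher and 2 did not pass, where 57.7% of all genes were called and 27.8% were higher, and all 6 differences turned negative with the epithelial markers as the scale. Cgn, which binds ZO proteins and a RhoA activator at the junction, had 11.3 and 4.28 scaled FPKM in the epithelium of bile and of pancreatic duct. It had 42.6, 42.3 and 42.0 in bile duct organoids and 44.4, 42.6 and 41.6 in those of the pancreatic duct, a near constant level with both epithelia below it. The difference was 2.43 (SE 0.25, limma adjusted p = 0.000167), with 1.81 in bile duct and 3.06 in pancreatic duct. Its relative Cgnl1 (paracingulin) had 22.1 and 28.4 in the epithelia and 33.0 to 48.4 in the organoids, a difference of 0.65 (SE 0.11, limma adjusted p = 0.00233). The ratio of Cgn to Cgnl1, which needs no scaling between libraries, was 0.512 and 0.151 in the epithelia and 0.918 to 1.28 in the organoids.

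The scaffolds Tjp1 and Tjp3 also differed in their ratio. Tjp1 had 36.2 and 42.6 scaled FPKM in the epithelium of bile and of pancreatic duct and 47.7 to 72.3 in the organoids, a difference of 0.51 (SE 0.19, limma adjusted p = 0.0498) that did not pass under median of ratios scaling (adjusted p = 0.0912), without a minimum of 1 FPKM (adjusted p = 0.0611) or without the intensity trend (adjusted p = 0.0538). Tjp3 was at 23.9 in epithelium of the bile duct and at 3.32 in that of the pancreatic duct. Its levels were 29.5, 43.6 and 34.4 in bile duct organoids and 41.1, 30.8 and 38.2 in those of the pancreatic duct. The ratio of Tjp3 to Tjp1 was 0.660 in epithelium of the bile duct and 0.0781 in that of the pancreatic duct, against 0.664 ± 0.252 over bile duct and 0.650 ± 0.117 over pancreatic duct organoids (SD, n = 3 per organ). Pancreatic duct epithelium thus stood apart from the other 7 libraries, whose lowest ratio was 0.409. In that library general epithelial markers summed to 559 and smooth muscle markers to 3706. The part of other cells in this ratio, and in that of Cgn to Cgnl1, was not tested. Magi1 and Magi3 did not pass, at 0.25 and 0.26.

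All 5 polarity genes were called higher, where 27.8% of all genes were, and all 5 turned negative with the epithelial markers as the scale, on which 85.5% of all genes were lower. Patj, a scaffold of the Crumbs complex, was at 3.80 and 2.04 scaled FPKM in the epithelia, 18.8, 14.9 and 13.8 in bile duct organoids and 18.6, 15.5 and 15.7 in those of the pancreatic duct, a difference of 2.16 (SE 0.20, limma adjusted p = 9.47e-05). Crb3, the Crumbs protein of epithelia, had 18.5 and 5.54 against 39.8 to 47.8, a difference of 2.02 (SE 0.31, limma adjusted p = 0.00132), or 1.23 without the pancreatic duct epithelium. Pard6b rose by 1.69, the kinase Prkci by 0.78 and Pard3 by 0.68 (SE 0.22, 0.10 and 0.18, limma adjusted p = 0.000615, 0.000666 and 0.0144). The spans of Crb3 and Dennd1c share 14 exon bases on opposite strands.

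**Figure D4:**
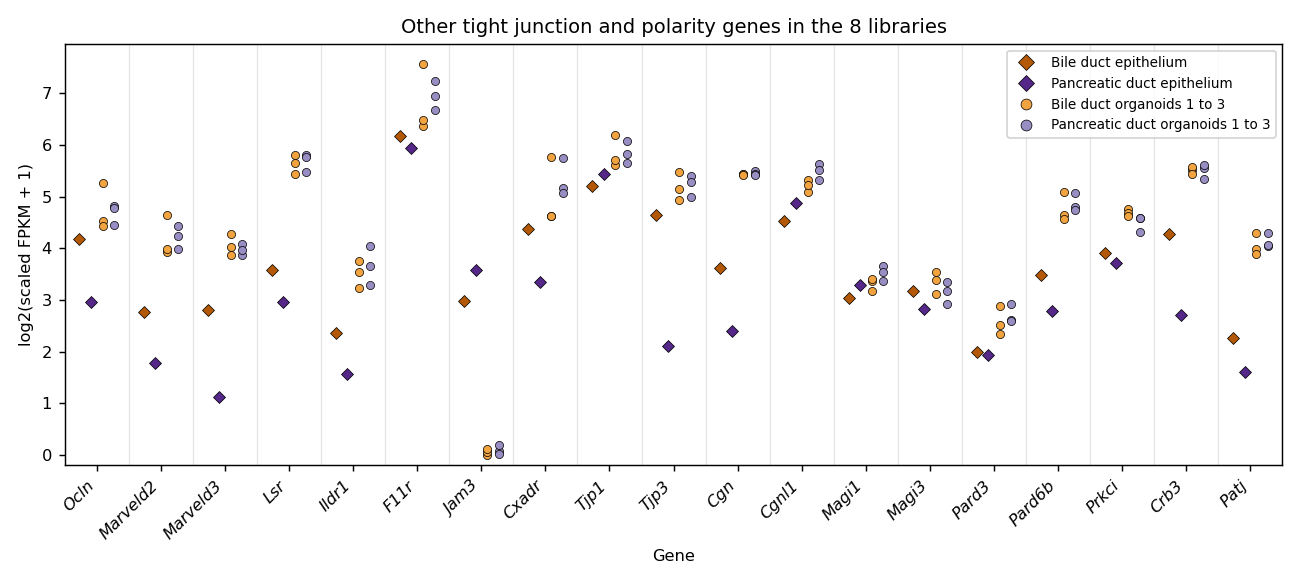
Levels of the 19 members that are not claudins in each library, as log2(scaled FPKM + 1), with symbols as for the claudins. Jam3 is near 0 in all 6 organoids, Cgn is almost the same in all 6, and Tjp3, Marveld3 and Crb3 are lowest in pancreatic duct epithelium; with scaling by epithelial markers 25 of the 31 members tested, claudins included, turn in sign.

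Between the epithelia, on the log2(scaled FPKM + 1) scale, 13 of 30 members were higher in bile duct by 2-fold or more and 1 was lower by as much, where 9.18% of 15092 genes were higher and 4.53% lower (13.7% in either direction). These are single libraries with no replicate check. The 6 epithelial markers used for scaling had a geometric mean 4.37-fold higher in bile duct epithelium. On their scale 0 members were higher and 16 lower by 2-fold or more, where 3.93% of all genes were higher and 87.8% lower. Cldn2, at 144 against 18.8, and Tjp3, at 23.9 against 3.32, were 7.66-fold and 7.20-fold apart as plain ratios, more than that mean. Cldn7, 5.13-fold, and Marveld3, 5.16-fold at 6.03 against 1.17, were also above that mean, but neither lay above every marker. Single markers varied, with Krt8 at 1102 against 181, Epcam at 250 against 46.2 and Krt18 at 479 against 165. Cldn15, at 23.0 against 5.49, and Cldn8, at 26.1 against 6.87, were also higher in bile duct. Enterocyte markers summed to 376 in the bile duct and 54.7 in the pancreatic duct library and Paneth and goblet cell markers to 1917 and 20.6, and their part in these differences was not tested. The member counted as lower in bile duct was Cldn6, at 0.296 against 6.15, a difference of -2.46 on that log2 scale. It reached 1 FPKM only in the pancreatic duct library, so this count carries no support. Cldn1, at 0.632 against 1.95, was also lower as a plain ratio but not counted.

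The organoid groups, the only ones with replicates on both sides, were compared with limma over the 26 members that had at least 1 FPKM in 3 organoids. None of these 26 had an adjusted p under 0.05 and 0 had an unadjusted p under 0.05, where 0 and 2.52% of 12106 genes did. The smallest unadjusted p of a member was 0.0251 without bile duct organoid 1 and 0.0429 without pancreatic duct organoid 2, and no member passed after adjustment. Over all genes, 1016 in place of 305 had an unadjusted p under 0.05 without bile duct organoid 1, and 11 passed after adjustment without pancreatic duct organoid 3. The median difference of the members, bile duct minus pancreatic duct, was -0.05, against 0.01 for all genes. Groups did not overlap in 1 of the 26, against 6.76% of all genes. This was Prkci, with 26.1, 24.7 and 23.7 scaled FPKM in bile duct organoids and 22.9, 18.9 and 23.2 in those of the pancreatic duct, a difference of 0.20 (SE 0.12, limma unadjusted p = 0.131). Cgnl1 had the smallest unadjusted p, with -0.26 (SE 0.12, limma unadjusted p = 0.0779). Cldn4 had -0.98 (SE 1.04) and Cldn6 -0.82 (SE 0.98), so differences of several-fold in either gene would not have been detected. Cldn4 was at -2.07 without bile duct organoid 1 and -0.35 without pancreatic duct organoid 2, and Cldn6 at -1.69 without pancreatic duct organoid 3 and -0.13 without pancreatic duct organoid 2. Cldn1, Cldn9, Cldn10, Cldn15, Cldn18 and Jam3 fell under the filter.

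Cultures of the same organ differed widely in a few claudins. The residual SD within groups was 1.58 for Cldn4 and 1.49 for Cldn6 on the log2 scale, above that of 99.4% and 99.3% of genes tested, against a median of 0.21 over all genes and 0.25 over the members. Cldn4, a sealing claudin of many glandular epithelia, had 448, 42.2 and 51.0 scaled FPKM in bile duct organoids 1 to 3 and 175, 477 and 93.9 in pancreatic duct organoids 1 to 3. Bile duct organoid 1 and pancreatic duct organoid 2 were the highest, and the highest organoid was 11.3 times the lowest. The same pair of cultures had the highest Cldn6 and Cldn1, whose ranges were 10.8-fold and 31.7-fold. Cldn1 was not among the 26 tested, and its read numbers, like those of Cldn6, could not be recovered. Cldn23, Cldn3, Cxadr and F11r followed with residual SDs of 0.73, 0.59, 0.54 and 0.52.

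Bile duct organoid 1 was the highest organoid in 9 and pancreatic duct organoid 2 in 7 of the 26 members, against 21.4% and 18.1% of all genes tested. The proliferation markers were lower in those cultures. Mki67, a protein of cycling cells, had 23.4, 62.4 and 61.2 in bile duct organoids and 30.3, 18.0 and 52.2 in those of the pancreatic duct. Epcam, which binds Cldn7, had 994, 382 and 332 in bile duct organoids and 421, 768 and 366 in those of the pancreatic duct. The part of either in the spread of Cldn4 and Cldn6 was not tested. At the other end, Cgn, whose start window is printed above with those of Cldn4 and Cldn6, had a residual SD of 0.03, lower than that of all but 0.289% of genes tested, and its highest organoid was 1.07 times the lowest. Crb3, Prkci and Cldn12 were also even, with residual SDs of 0.11, 0.12 and 0.13.

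**Figure D5:**
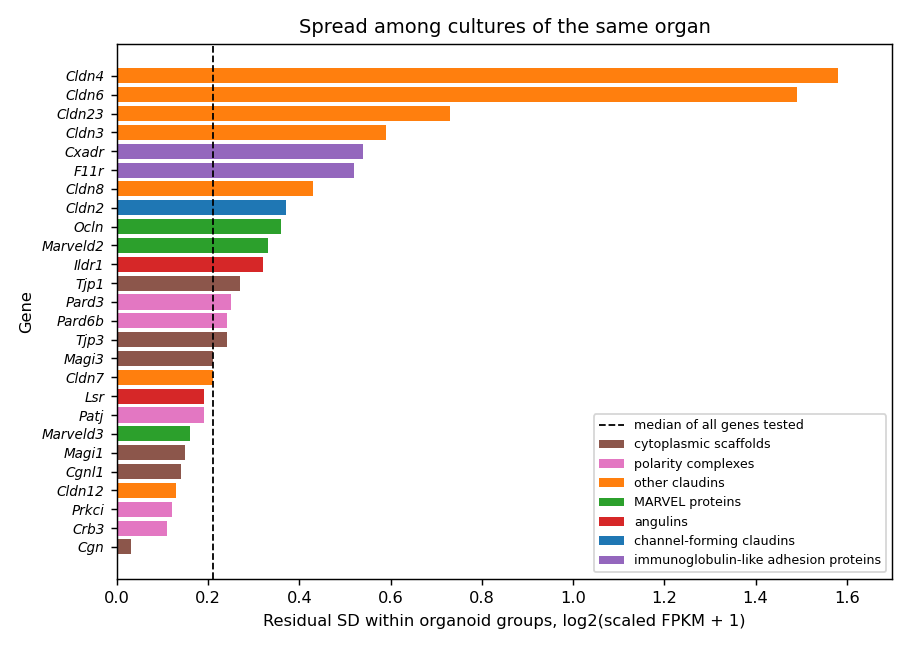
Residual SD within the organoid groups on the log2 scale for the 26 members tested, with a dashed line at the median of all genes, 0.21. Cldn4 and Cldn6 reach 1.58 and 1.49, and Cgn has 0.03.

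Other tight junction and polarity genes outside the set numbered 41 in the table. Of the 31 tested from epithelium to organoid, 14 were higher, 8 lower and 9 did not pass, where 27.8% of all genes were higher and 29.9% lower. Of the 8 lower, Cldn5, Cldn11, Clmp and Pard3b entered the fit only through their epithelial levels, so their calls carry no support. The list had a median difference of 0.27 on the log2 scale against 1.15 for the members and 0.00 for all genes. With the epithelial markers as the scale, 0 were higher and 26 lower, where 0.697% of all genes were higher and 85.5% lower. Cldn5 had 56.1 and 119 scaled FPKM in the epithelium of bile and of pancreatic duct and 0 in all 6 organoids. Esam, another endothelial junction protein, went from 59.4 and 98.5 to between 0.174 and 1.27, and Jam2 from 46.9 and 48.0 to between 1.14 and 5.69. Among those that rose, the lateral polarity genes Llgl2 and Scrib differed by 1.80 and 1.26 (SE 0.21 and 0.12, limma adjusted p = 0.000307 and 0.000104).

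For the neighbouring junctions of the same cells, 6 of 10 adherens junction genes were higher and 1 lower in organoids, with a median of 0.85, where 27.8% of all genes were higher and 29.9% lower, and 8 of 9 desmosome genes were higher and 0 lower, with a median of 1.88. With the epithelial markers as the scale, 0 adherens junction genes were higher and 8 lower, and 1 desmosome gene was higher and 2 lower, where 0.697% of all genes were higher and 85.5% lower. The desmosomal plaque gene Pkp1 had 1.30 and 0.120 scaled FPKM in the epithelium of bile and of pancreatic duct and 12.0 to 43.1 in the organoids, so that it entered the fit through the organoids and its call carries no support. Nectin3 was the adherens junction gene that was lower, with a difference of -1.34 (SE 0.18, limma adjusted p = 0.000698). Between the organoid groups 0 of 25 other tight junction and polarity genes, 0 of 10 adherens junction genes and 0 of 9 desmosome genes had an unadjusted p under 0.05 in limma.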

How the data were processed

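RNA was selected with poly-T beads, per the labels' protocols. The values are FPKM as deposited by the authors in 1 table with 1 column per library; no header names the unit, which was read from the values, and 0 other per-sample columns were left aside. Bowtie2 2.2.3, HISAT2 2.1.0, TopHat2 and HTSeq 0.6.0 are named in the submitters' processing notes, with no role or order. Filters, strand use and build are not given in the sources used here. Coordinates are those of the table, and 28635 of 31141 gene identifiers found in GENCODE M21 (GRCm38) had identical ones.

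FPKM times merged exon length was a whole multiple of 1 step per library for 28310 genes (90.7%), within 0.05 of a read, and gave the read numbers, whose limits cover counting error only. Replicates differed far beyond sampling noise (chi-square per degree of freedom of at least 17.6).

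Libraries were scaled by a trimmed mean of log ratios (30% of ratios and 5% of levels trimmed per side) over genes with at least 1 FPKM in any library, all 8 together, and the 6 organoids alone for the comparison between them. log2(scaled FPKM + 1), which understates changes of low genes, was tested with limma 3.58.1 in R 4.3.3, with an intensity trend, for genes with at least 1 FPKM in 3 of 6 organoids or 2 of 8 libraries, and adjusted by Benjamini-Hochberg over all genes tested (threshold 0.05). In simulated data with 200 genes changed, the organoid fit on 12106 genes recovered 84% of 4-fold and 60% of 2-fold changes, with 8 false calls among 152. The fit of epithelium against organoid on 14919 genes recovered 86% and 52%, with 7 among 145. In the simulation residual SDs were capped at the 90th percentile, low means were raised, and changes were the same in both organs. Between the organoid groups 4 members, Cldn4, Cldn6, Cldn23 and Cldn3, had residual SDs above that percentile, so these shares do not hold for them. Comparisons with 1 library on a side were described by a 2-fold difference (log2 of 1). Figures used matplotlib 3.10.9 in Python 3.11.15.

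The members, gene lists, marker lists and tests were chosen with earlier results of these data known. By rule, every library's value is given for members at least 4-fold apart between the epithelia, at least 4-fold from epithelium to organoid in both organs, or opposite in direction between organs, all on the log2(scaled FPKM + 1) scale. Cldn3, Cldn4, Cldn8, Cldn10, Cldn15, Cgn, Prkci, Marveld3 and Patj were added after their values were seen, as were the shares and ratios within a library. Alternatives covered scaling, pseudocount, filter, replicate block, organ term, intensity trend and leaving out libraries.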

Additional observations from a re-analysis of the deposited data

How the results depend on the processing

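Between the organoid groups, 0 members were called under each alternative run, leaving out each organoid in turn included (0 to 0), and with the replicate number of the titles as a block (0 called, smallest unadjusted p = 0.0696). The block rests on the titles alone. Deviations of same-numbered organoids correlated at -0.106, -0.441 and 0.48, against 0.65 for bile duct organoid 1 with pancreatic duct organoid 2. Deviations from a group mean are tied to each other, so these values cannot tell whether the numbers pair the cultures. Over all genes limma called 0 with the block, and 284 against 305 at an unadjusted p under 0.05.

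From epithelium to organoid over both organs, 15 to 24 members were called when single libraries were left out, the lowest without pancreatic duct epithelium. Setting libraries equal in the 6 epithelial markers changed the results most. The differences over both organs became -0.21 for Cldn2, -1.60 for Cldn1, -1.47 for Cldn3, -0.14 for Cldn4, -0.32 for Cldn7, -0.15 for Cldn9, -1.59 for Cldn12, -1.43 for Ocln, -0.47 for Marveld2, -0.17 for Marveld3, -0.18 for Lsr, -0.69 for Ildr1, -1.86 for F11r, and -1.30 for Cxadr, -2.16 for Tjp1, -0.68 for Tjp3, -0.10 for Cgn, -2.01 for Cgnl1, -2.27 for Magi1, -2.22 for Magi3, -1.62 for Pard3, -0.87 for Pard6b, -1.83 for Prkci, -0.56 for Crb3 and -0.18 for Patj. By organ, the differences under that scaling were -0.47 for Cldn2 and -0.33 for Cldn7 in bile duct, and -0.22 for Cldn6, -0.32 for Cldn7, -0.33 for Tjp3, -0.88 for Lsr, -0.46 for Cgn and -1.49 for Cldn3 in pancreatic duct, and 10 members in place of 16 were 2-fold apart in bile duct. The markers' own rise, given with the comparison, is what this scaling removes by construction. The uncalled differences of Cldn1 and Cldn23 over both organs ranged from -0.18 to 0.63 and from -1.55 to 0.68 when single libraries were left out. Apart from fits without an epithelial library, the other member counts in either direction stayed within 1.5 times of those reported. Counts split by direction did not. Over both organs, 20 higher and 4 lower became 1 and 16 with the epithelial markers, and 18 and 0 with a filter at 10 FPKM. By organ and between the epithelia, the epithelial markers also shifted the counts towards lower, as given with those comparisons. Depth limits Cldn10, Cldn18 and Jam3, which rest on few or 0 reads on a side, and the filter at 10 FPKM leaves 23 members.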
